A study of Mus musculus with 12 samples.

Results

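MicroRNAs (miRNAs) were compared between the lines whose cells reach distant sites, 4TO7 and 4T1 (6 arrays), and the lines 67NR and 168FARN (6 arrays), which together make up all 12 arrays of the series. Each line was measured on 3 one-colour Agilent mouse miRNA arrays and had equal weight in its side. All 4 are female BALB/c lines from breast cancers that arose spontaneously, with a wild type genotype and no treatment in the labels. In the labels only 4T1 is metastatic, and 67NR, 168FARN and 4TO7 are non-metastatic, so placing 4TO7 beside 4T1 goes beyond its label. As background, 67NR forms primary tumours, 168FARN also reaches lymph nodes, 4TO7 reaches distant organs without forming visible metastases there, and 4T1 forms them. Nothing in the labels tells whether repeats of a line came from separate cultures, so the p-values reflect only how these arrays vary, and that may be technical. Each line is also a single line, so a side is 2 lines and not a sample of all lines that spread or do not spread.

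A miRNA is a short RNA cut from a hairpin precursor. One strand, the guide, is loaded into an Argonaute protein and pairs with messenger RNAs mainly through its seed, bases 2 to 8, which lowers their translation and stability. The other strand, written with a star in the older names used on these arrays, is usually less abundant. Many miRNAs are processed from 1 shared transcript, as clusters, and those with the same seed form a family. In breast cancer the miR-200 family, let-7, miR-31 and miR-34a are known for restraining invasion or growth, and miR-10b, miR-21 and the miR-17-92 cluster for promoting them.

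A miRNA is called separated here when both distant-site lines lay beyond both other lines. That required all 4 differences between a line of 1 side and a line of the other to pass an adjusted p of 0.05 in the same direction (limma, Benjamini-Hochberg over the 224 miRNAs tested of 567 on the array) and the 6 arrays of a side not to overlap the 6 of the other. Of the separated miRNAs that were higher in the distant-site lines, 14 of 27 have a mature sequence in the RefSeq table used (build GRCm38.p6), as have 23 of the 25 that were lower. The sequences of those the results turn on follow, 5′ to 3′, with the seed in capitals. Of the higher ones, let-7g, let-7d and miR-98 are shown because they share the seed GAGGUAG, miR-183, miR-96 and miR-182 because they come from 1 locus, miR-17* because its guide strand was ordered otherwise, and miR-125b-5p for the largest difference between the sides among those read on all 12 arrays.
let-7g: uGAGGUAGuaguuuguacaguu
let-7d: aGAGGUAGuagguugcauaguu
miR-98: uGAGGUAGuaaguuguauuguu
miR-183: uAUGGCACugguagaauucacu
miR-96: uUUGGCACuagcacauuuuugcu
miR-182: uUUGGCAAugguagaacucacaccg
miR-17*: aCUGCAGUgagggcacuuguag
miR-125b-5p: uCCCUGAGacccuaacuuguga
Of the lower ones, miR-342-3p, miR-34a and miR-10a are shown for the widest separation, miR-195, miR-497 and miR-16 for their shared seed AGCAGCA, and miR-30c and miR-30e for the seed GUAAACA.
miR-342-3p: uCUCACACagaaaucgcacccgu
miR-34a: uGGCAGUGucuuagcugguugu
miR-10a: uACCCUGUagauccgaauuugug
miR-195: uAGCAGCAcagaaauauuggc
miR-497: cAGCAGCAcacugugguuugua
miR-16: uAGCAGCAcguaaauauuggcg
miR-30c: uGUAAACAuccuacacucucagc
miR-30e: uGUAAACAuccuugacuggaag

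The lines did not stand at equal distances. Over the tested miRNAs the arrays of 4TO7 and 4T1 correlated at r = 0.959 to 0.965, those of 168FARN with either at 0.837 to 0.874, and those of 67NR with the 3 other lines at 0.539 to 0.636, while arrays of 1 line correlated at 0.993 or more. The signal used to scale an array was 358 to 460 for 67NR, 791 to 1213 for 168FARN, 600 to 671 for 4TO7 and 889 to 1136 for 4T1. The 3 arrays of 67NR and the first of 168FARN were on 1 slide and the other 8 arrays on another, and a control probe, hur_5, read 180 to 207 on the 67NR arrays against 1.25 to 6.36 elsewhere. The part of that slide in the results was not tested beyond the values given with and without 67NR, within the slide of the other 8 arrays, and with the slide as a block. The part of these control signals was not tested beyond the values with and without 67NR. Levels below are log2 of the scaled signal, given for the arrays of a line in the order of their repeats or as mean ± SD (n = 3 arrays), and differences are log2 ± their standard error (SE). A level of -5.58 is the floor, below which no order is read. A miRNA is called unread in a line where no array detects it well above background or where all arrays are at the floor. An unread line gives only a bound, written as "at least". Per array the bound is the higher of the miRNA's own level and the dimmest signal that counts as well above background. A p-value printed beside a bound tests the levels with the floor in place and not the bounded fold. Where both lines of a side are at the floor, their values are a constant, and that side adds no spread to the test.

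The question was which miRNAs set the distant-site lines apart. The mean of 4TO7 and 4T1 differed from the mean of 67NR and 168FARN for 208 of 224 miRNAs, a background of 92.9% called. Of these 77 (34.4%) were higher in the distant-site lines and 131 (58.5%) lower (47 and 141 with the normexp background correction), and the median difference over all tested was -0.41. In RNA from whole cultures fewer cells of a type and less RNA per cell cannot be told apart. Far fewer miRNAs were separated, 52 of 224 (23.2%), of which 27 (12.1%) were higher and 25 (11.2%) lower. These 52 were chosen by their own levels, so their differences between the sides are a description. The distance between the nearest line means of the 2 sides is called the gap, and where a line is unread the gap is a bound. With unread lines at their bound it was 0.42 at the median for 25 of the higher miRNAs (0.13 to 2.18) and 0.42 for 24 of the lower ones (0.13 to 2.98), and for the other 2 higher and 1 lower no gap can be given. Measured so, 9 miRNAs (4.02%) were higher and 8 (3.57%) lower with a gap of at least 1.5-fold. Where no line was unread, the gap exceeded the distance between 4TO7 and 4T1 as well as that between 67NR and 168FARN for 2 of 10 higher miRNAs (miR-183 and miR-183*) and 2 of 19 lower ones (miR-195 and miR-140). With scaling to all probes, without scaling and with quantile normalization, 14 of the 27 and 10 of the 25 were separated in all 3 settings, and in none of the 3 were miR-24 and the 10 lower miRNAs miR-128, miR-140, miR-28, miR-29c, miR-125a-3p, miR-671-5p, miR-30a*, miR-30c, miR-30e and miR-30e*.

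**Figure D1:**
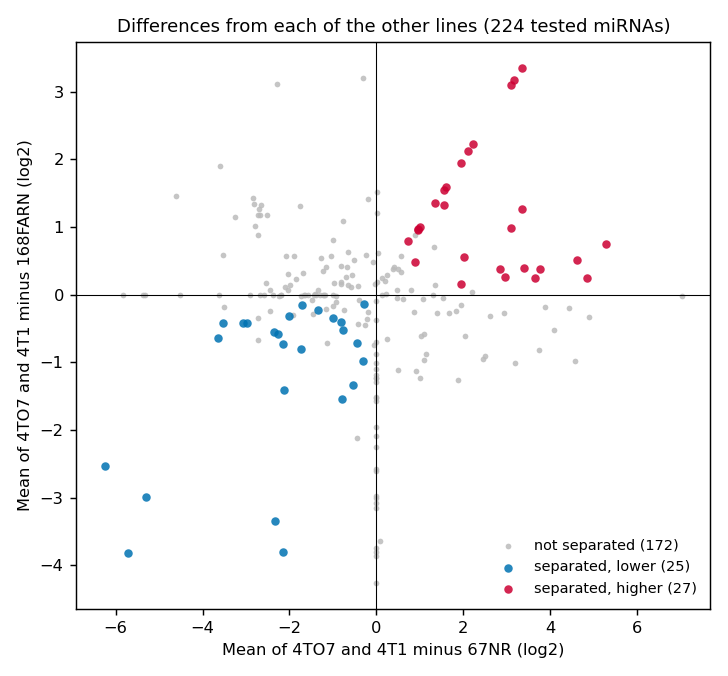
Each point is 1 of the 224 tested miRNAs, with the mean of 4TO7 and 4T1 minus 67NR on the x axis and minus 168FARN on the y axis (log2). The 27 separated higher miRNAs lie at the upper right and the 25 separated lower ones at the lower left. Both axes share the arrays of 4TO7 and 4T1.

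The arrays count repeats of 4 lines, and the lines themselves are the replicates of a side. With the 4 line averages as the samples (limma, 2 residual degrees of freedom) 0 miRNAs were called, the smallest adjusted p being 0.405, and 11 had an unadjusted p below 0.05. An exact permutation of 2 lines against 2 cannot give a two-sided p below 0.333. Those 11 are 6 higher miRNAs of the Sfmbt2 cluster (miR-669a, miR-466e-3p, miR-467a*, miR-467b, miR-297a and miR-467a) and the 5 lower ones miR-34a, miR-342-3p, miR-195, miR-497 and miR-10a. In these 6, miR-342-3p and miR-10a both lines of a side were at the floor. The spread within that side was thus 0 by construction, which lowers the p.

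The Sfmbt2 cluster supplied the widest separation among the higher miRNAs. This family of repeated hairpins lies in an intron of Sfmbt2, an imprinted Polycomb gene, and is known from placenta and embryonic stem cells. Its miR-669a read -1.82, -1.86 and -1.74 in 4TO7 and -2.66, -2.67 and -2.60 in 4T1, and was at the floor on all 6 arrays of 67NR and 168FARN, where it was unread. The 2 distant-site lines were thus the only ones in which it was read, and their mean was at least 7.86-fold higher (limma adjusted p = 1.9e-16), with 4T1, the nearer line, at least 4.53-fold above both. For miR-466e-3p 4TO7 gave -1.98, -1.93 and -1.99 and 4T1 -2.87, -2.82 and -2.81, for a side difference of at least 6.96-fold (adjusted p = 4.8e-17). For miR-467a* 4TO7 gave -2.07, -2.12 and -2.09 and 4T1 -2.92, -2.87 and -2.80, for at least 6.60-fold (adjusted p = 1.9e-16). Each of these had both other lines at the floor on every array.

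Of the 21 miRNAs listed for this cluster 18 are on the array and 11 were tested. All 11 were unread in both 67NR and 168FARN and entered the test only through the distant-site lines. All 11 were called higher and separated (34.4% and 12.1% of all tested were), which the filter on read miRNAs fixed in large part, and the 7 others were not read on all arrays of any line. The dimmer members were miR-467b (-3.03 ± 0.10 in 4TO7, -3.65 ± 0.02 in 4T1), miR-297a (-3.13 ± 0.05 and -3.78 ± 0.03), miR-467a (-3.35 ± 0.04 and -3.91 ± 0.08), miR-669b (-3.64 ± 0.05 and -4.32 ± 0.08), miR-467e (-3.59 ± 0.05 and -4.46 ± 0.02) and miR-467c (-3.81 ± 0.04 and -4.63 ± 0.08). At the bottom stood miR-669c (-4.21 ± 0.02 and -5.0 ± 0.03) and miR-466c-5p (-4.10 ± 0.11 and -5.13 ± 0.01), whose 4T1 level did not exceed the bound of the unread lines, so that no gap can be given for them. The raw probe signals were low, 180 on average in 4TO7 and 166 in 4T1 for miR-669a, and with the normexp background correction 11 of 11 were still called higher but only 3 were separated. The hairpins of this cluster are near copies of each other, and a probe may read several of them. The probe targets of 10 of the 11 lie within chr2:10389446-10402905 and chr2:10412979-10430967 (mm9, the build of the array design), and that of miR-297a on chromosome 10. In the latter stretch miR-297c and miR-297b-3p, not in the list, were called higher without being separated (side differences of 0.39 ± 0.04 and 0.40 ± 0.07, SE), since 4T1 was at the floor on all or on 2 of its arrays.

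**Figure D2:**
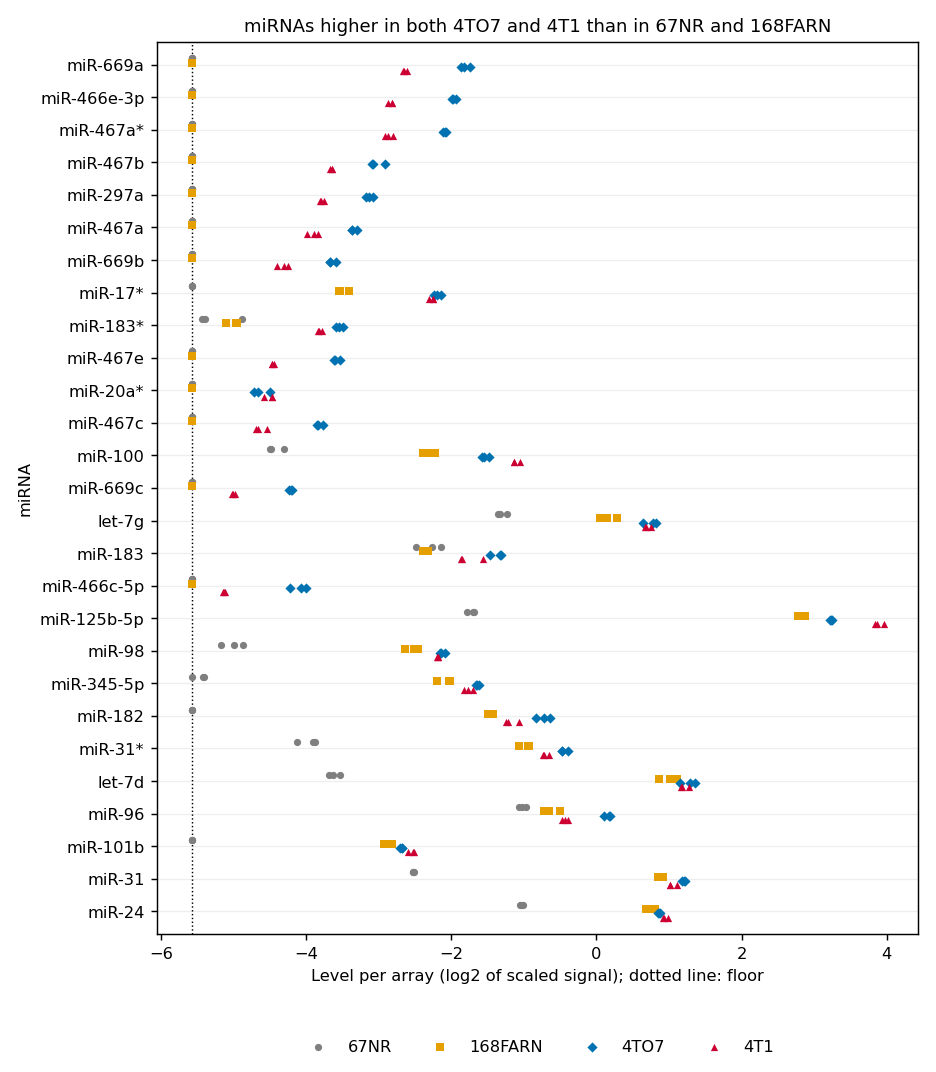
Levels on each of the 12 arrays (log2 of scaled signal, x axis) of the 27 miRNAs higher in both distant-site lines, in order of the distance between the nearest line means with unread lines at the floor, which is the dotted line. The lines of the 2 sides are farthest apart for miR-669a at the top and closest for miR-24 at the bottom, and in 14 of the miRNAs 168FARN stands nearer than 67NR to the distant-site lines.

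The miR-183/96/182 cluster, a single transcript known from sensory cells and raised in many carcinomas, was separated in full (12.1% of all tested were separated higher). Its 4 tested strands lie within chr6:30115962-30119729 (mm9) and each was higher in both distant-site lines. For miR-183 67NR read -2.48, -2.13 and -2.26, 168FARN -2.39, -2.32 and -2.36, 4TO7 -1.32, -1.47 and -1.32, and 4T1 -1.85, -1.87 and -1.57. The arrays of 67NR and 168FARN were mingled, those of 4T1 lay above them and those of 4TO7 above 4T1, and the sides differed by 0.76 ± 0.07 (SE). Its passenger strand miR-183* had the wider gap, 1.2, with -3.54 ± 0.05 in 4TO7 and -3.81 ± 0.03 in 4T1 against -5.01 ± 0.08 in 168FARN and -5.24 ± 0.31 in 67NR, where 1 of 3 arrays read it. For miR-96 the levels ran from -1.02 ± 0.05 in 67NR and -0.63 ± 0.11 in 168FARN to -0.43 ± 0.04 in 4T1 and 0.15 ± 0.04 in 4TO7. This is a narrow gap of 0.20 with the highest 168FARN array, -0.50, close to the lowest 4T1 array, -0.47. For miR-182, reported to promote breast cancer metastasis, 67NR was unread, and 168FARN at -1.46 ± 0.04 lay below 4T1 (-1.18 ± 0.10) and 4TO7 (-0.73 ± 0.09). Against 168FARN alone the mean of the distant-site lines was higher by 0.51 ± 0.05 for miR-182, 0.79 ± 0.08 for miR-183, 0.49 ± 0.05 for miR-96 and 1.33 ± 0.10 for miR-183*. Without any scaling of the arrays, and with the gene-level total signal, miR-182, miR-183 and miR-96 were all called higher but none was separated.

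In the let-7 family, whose members repress growth genes such as Ras and Hmga2, the contrast of the sides came mainly from 67NR. Of 9 members, 8 were called higher in the distant-site lines and 3 were separated, where 34.4% and 12.1% of all tested were. Called against 67NR alone, all 9 were higher (33% of all tested were), while against 168FARN alone 4 were higher and 4 lower (36.6% and 41.1% of all tested), and the median difference was 2.85 against 67NR and -0.06 against 168FARN. The remaining member, let-7e, had a side difference of -0.11 ± 0.06 (adjusted p = 0.071), and it turned above 0 with scaling to all probes or without scaling. With normexp and with the gene-level total signal 8 of the 9 members were called higher and 1 lower. For separated let-7g 67NR read -1.35, -1.23 and -1.33, 168FARN 0.15, 0.29 and 0.04, 4TO7 0.77, 0.64 and 0.82, and 4T1 0.68, 0.67 and 0.75. The distant-site lines could not be told apart for it (4T1 minus 4TO7 of -0.04, adjusted p = 0.70) and stood 0.56 ± 0.06 above 168FARN and 2.03 above 67NR. For let-7d 67NR was at -3.62 ± 0.08, 168FARN at 0.99 ± 0.13, 4T1 at 1.2 ± 0.06 and 4TO7 at 1.26 ± 0.11, and for miR-98, which carries the same seed, 67NR was unread and 168FARN, at -2.54 ± 0.09, lay under 4T1 (-2.19 ± 0.01) and 4TO7 (-2.13 ± 0.03). Both thus parted from 168FARN by small steps, 0.24 ± 0.06 and 0.38 ± 0.06. Without scaling none of the 3 was separated. Probes of let-7 members that differ at a base or so may read each other's RNA, which was not tested.

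The neighbours miR-100 and miR-125b-5p, of families that are often transcribed together with let-7, differed in steps between the 4 lines. For miR-125b-5p 67NR read -1.79, -1.69 and -1.69, 168FARN 2.78, 2.87 and 2.79, 4TO7 3.23, 3.25 and 3.22, and 4T1 3.83, 3.87 and 3.96. The side difference was 3.02 ± 0.03, an 8.09-fold change, but its greater part lay between 67NR and the rest, and against 168FARN it was 0.75 ± 0.04. For miR-100 the line means were -4.43 ± 0.11 in 67NR, -2.31 ± 0.08 in 168FARN, -1.53 ± 0.04 in 4TO7 and -1.11 ± 0.05 in 4T1, with 0.99 ± 0.05 against 168FARN. With the scaling used, these 2 and miR-101b were the 3 separated higher miRNAs called higher in 4T1 than in 4TO7. The related miR-99a and miR-125a-5p were not separated, with side differences of 0.61 ± 0.05 and -0.11 ± 0.05 (adjusted p = 0.053 for the latter).

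Both strands of miR-31, a miRNA reported to suppress metastasis of human breast cancer cells, were higher in the distant-site lines. For miR-31 67NR read -2.52, -2.53 and -2.53, 168FARN 0.87, 0.92 and 0.84, 4TO7 1.19, 1.2 and 1.22, and 4T1 1.02, 1.01 and 1.12. The gap to 168FARN was 0.17, although the side difference was 1.95 ± 0.02, and 4TO7 was the highest line. For miR-31* the line means were -3.97 ± 0.13, -0.98 ± 0.07, -0.45 ± 0.05 and -0.71 ± 0.05 in the same order. For both strands 67NR was far below and the other 3 lines lay close to each other.

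In the miR-17-92 cluster, an oncogenic cluster that drives proliferation, 2 star strands, miR-17* and miR-20a*, parted from their guide strands. The third tested one, miR-18a*, did not, with side differences of -0.89 ± 0.06 for it and -0.74 ± 0.04 for miR-18a. For miR-17* 4TO7 read -2.24, -2.19 and -2.15, 4T1 -2.25, -2.25 and -2.30, and 168FARN -3.54, -3.40 and -3.54, while 67NR was at the floor on all arrays and 1 of them marked the probe as above background. The distant-site lines exceeded 168FARN by 1.27 ± 0.04. The guide strand miR-17 was instead highest in 67NR (0.64 ± 0.10), lowest in 168FARN (-3.34 ± 0.06) and between them in 4TO7 (-1.99 ± 0.07) and 4T1 (-2.05 ± 0.09). For miR-20a* 4TO7 (-4.63 ± 0.11) and 4T1 (-4.51 ± 0.06) lay above the floor at which both other lines stood, and miR-20a was at 4.33 ± 0.01 in 67NR, 0.43 ± 0.09 in 168FARN, 1.76 ± 0.05 in 4TO7 and 1.47 ± 0.03 in 4T1. The distance of miR-20a* from 67NR and 168FARN is thus only a bound. It stayed separated in the 3 other scalings, but not with normexp or with the floor doubled. Of the 11 tested guide strands of this cluster and its paralogs 11 were called lower in the side means, against 58.5% of all tested. Against 67NR alone 11 were lower (50% of all tested), and against 168FARN 8 were higher and 1 lower (36.6% and 41.1% of all tested). The 1 separated member was miR-106b, lower in the distant-site lines, with 2.07 ± 0.05 in 67NR, 0.37 ± 0.08 in 168FARN, 0.18 ± 0.03 in 4T1 and -0.06 ± 0.05 in 4TO7.

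The other separated higher miRNAs had narrow gaps to 168FARN and a wide one to 67NR. The levels of miR-345-5p were -2.08 ± 0.10 in 168FARN, -1.64 ± 0.02 in 4TO7 and -1.77 ± 0.06 in 4T1, with 67NR unread. Those of miR-101b, a family that represses Ezh2, were -2.88 ± 0.05, -2.69 ± 0.02 and -2.54 ± 0.05, again with 67NR unread. Its family member miR-101a went the other way, called lower with a side difference of -1.85 and not separated. For miR-24 67NR was at -1.03 ± 0.02, 168FARN at 0.74 ± 0.06, 4TO7 at 0.86 ± 0.01 and 4T1 at 0.94 ± 0.03, the smallest gap of all, which no other scaling and not normexp kept. Its cluster neighbours on chromosome 13 parted otherwise: miR-23b was at -2.95 ± 0.11 in 4TO7 and -0.93 ± 0.06 in 4T1, and miR-27b at -2.89 ± 0.14 and -0.92 ± 0.03, so that 67NR (-1.35 ± 0.07 and -1.10 ± 0.15) and 168FARN (-2.05 ± 0.02 and -2.07 ± 0.07) lay between the distant-site lines. The hairpin of miR-24 also exists at another locus.

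Among the lower miRNAs, miR-342-3p, miR-34a and miR-10a showed the widest separation. The p53 target miR-34a, known for stopping the cell cycle, read 0.90, 1.06 and 0.96 in 67NR, -0.94, -0.82 and -1.02 in 168FARN, -3.88, -3.94 and -3.88 in 4T1, and was at the floor and unread in 4TO7. Both distant-site lines were far below both others, by at least 25.5-fold for the means (adjusted p = 4.0e-16), and 4T1 was 7.87-fold below 168FARN. For miR-342-3p, which lies in an intron of Evl, 67NR read -0.35, -0.17 and -0.27 and 168FARN -2.60, -2.51 and -2.66, while 4TO7 and 4T1 were unread at the floor. The side difference was at least 16.7-fold (adjusted p = 5.6e-16), and 168FARN, the nearer line, was at least 7.0-fold above both. As both distant-site lines were unread, miR-342-3p entered the test only through 67NR and 168FARN.

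For miR-10a, which lies in the Hoxb gene cluster, 67NR read 0.62, 0.73 and 0.64 and 168FARN -3.07, -2.96 and -3.11, again with both distant-site lines unread, so that the sides differed by at least 19.6-fold (adjusted p = 1.1e-16). The 2 other lines also lay far apart, with 168FARN minus 67NR at -3.72, and 168FARN stood at least 5.10-fold above the distant-site lines. Like miR-342-3p, miR-10a entered the test only through 67NR and 168FARN. Of the 4 tested Hox cluster miRNAs all 4 were called lower, beside 58.5% of all tested, and only miR-10a was separated. Its family member miR-10b, reported to promote metastasis, was read on all arrays of 67NR alone (0.27 ± 0.02) and was at the floor in the 3 other lines, as was miR-196a (-0.20 ± 0.09 in 67NR). The filter on read miRNAs thus fixed the lower calls of miR-10a, miR-10b and miR-196a in large part.

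**Figure D3:**
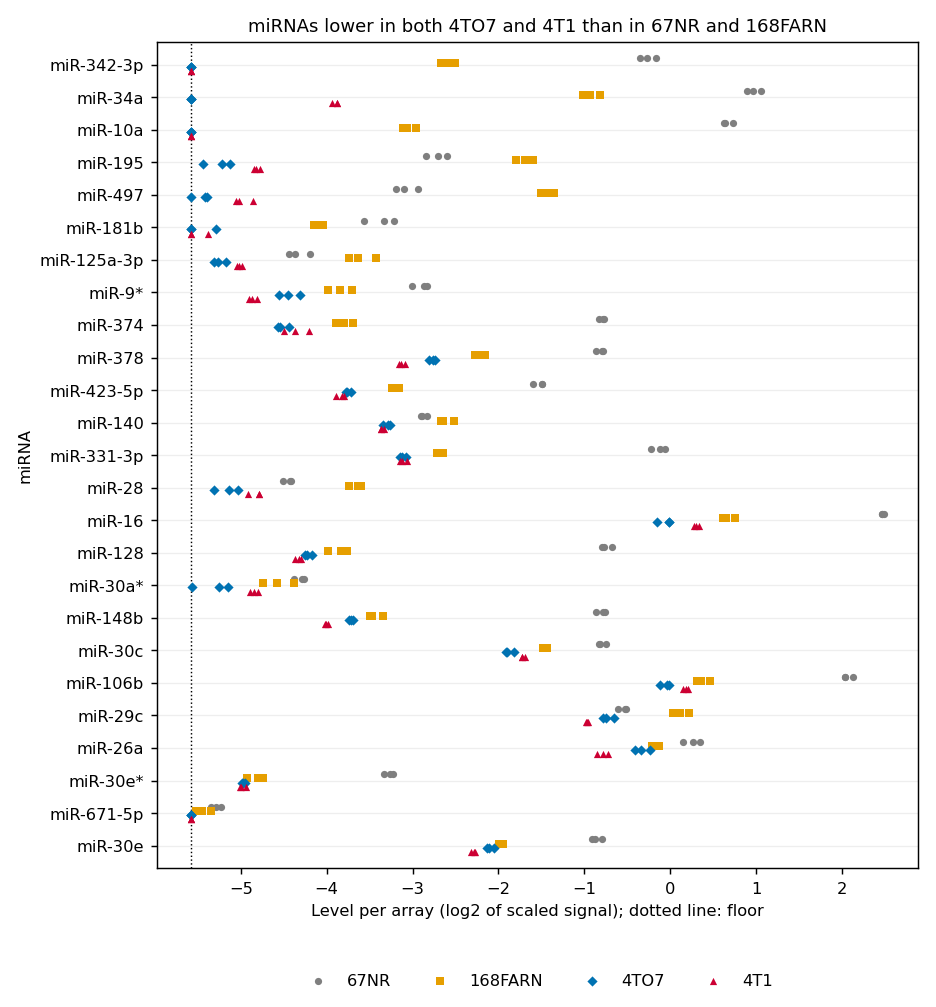
Levels on each of the 12 arrays (log2 of scaled signal, x axis) of the 25 miRNAs lower in both distant-site lines, in order of the distance between the nearest line means with unread lines at the floor, which is the dotted line. The upper 6, from miR-342-3p to miR-181b, have gaps of at least 2-fold also with unread lines at their bound, and below them 67NR is often far from the other 3 lines.

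In the miR-15/16 family, which represses cyclins and Bcl2, 6 of 7 members were called lower (58.5% of all tested) and 3 were separated (11.2%), miR-195, miR-497 and miR-16. The first 2 share a transcript at chr11:70048234-70048584 (mm9). For miR-195 67NR read -2.70, -2.60 and -2.84, 168FARN -1.69, -1.60 and -1.80, 4TO7 -5.22, -5.44 and -5.13, and 4T1 -4.82, -4.84 and -4.78. For miR-497 67NR read -3.20, -2.94 and -3.10, 168FARN -1.42, -1.35 and -1.50, and 4T1 -5.02, -5.06 and -4.86, with 4TO7 unread. Both were thus highest in 168FARN and lower in the distant-site lines than in 67NR, with gaps of 2.10 and 1.90 and side differences of -2.83 ± 0.06 and at least 7.54-fold. For miR-16 67NR was at 2.47 ± 0.01, 168FARN at 0.67 ± 0.07, 4T1 at 0.30 ± 0.03 and 4TO7 at -0.06 ± 0.08, a gap of 0.37. The cluster partner of miR-16, miR-15a, was not separated, with 168FARN (-0.98 ± 0.06) between 4TO7 (-1.0 ± 0.01) and 4T1 (-0.82 ± 0.03). The member called higher, miR-503, had a side difference of 0.21 ± 0.03 and was unread in 67NR. The direction of 3 members was not settled. With scaling to all probes, without scaling and with quantile normalization 4 of 7 were below 0 and miR-503, miR-15b and miR-322 above it, and with normexp all 7 were below 0.

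The miR-30 family, known as a guard of epithelial differentiation, showed small shifts. Of 5 guide strands 4 were called lower (58.5% of all tested) and 2, miR-30c and miR-30e, were separated, with a family median of -0.43 beside -0.41 over all tested. The fifth member, miR-30b, showed no call (adjusted p = 0.95). The family's direction moved with the scaling, with miR-30b called higher and 2 of 5 called lower with scaling to all probes or without scaling, and miR-30d above 0 and 3 of 5 called lower with quantile normalization. The counts over all tested with each scaling are given under how the results depend on the processing. For miR-30c the line means were -0.80 ± 0.04 in 67NR, -1.45 ± 0.02 in 168FARN, -1.71 ± 0.02 in 4T1 and -1.88 ± 0.05 in 4TO7. For miR-30e they were -0.86 ± 0.06, -1.97 ± 0.02, -2.29 ± 0.02 and -2.10 ± 0.04, with a gap of 0.13, and the star strands miR-30a* and miR-30e*, which share the seed UUUCAGU, were separated as well, by gaps of 0.28 and 0.15. None of these 4 strands was separated with scaling to all probes, without scaling or with quantile normalization, which move the median over all tested from -0.41 to -0.14, -0.17 and -0.15.

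Of the remaining lower miRNAs miR-181b, a family active in lymphocytes and brain, had the widest gap, at least 2.34-fold. It read -3.21, -3.56 and -3.33 in 67NR, -4.15, -4.04 and -4.09 in 168FARN, and between the floor and -5.28 on the 6 distant-site arrays, for a side difference of at least 3.21-fold (adjusted p = 5.1e-10). Its family member miR-181d went the other way, with 0.77 ± 0.08 and its highest level in 4T1 (-3.16 ± 0.03). For miR-125a-3p the line means were -4.34 ± 0.12 in 67NR, -3.60 ± 0.16 in 168FARN, -5.25 ± 0.07 in 4TO7 and -5.02 ± 0.03 in 4T1. The brain-enriched miR-9* fell from -2.91 ± 0.09 in 67NR and -3.84 ± 0.14 in 168FARN to -4.44 ± 0.13 in 4TO7 and -4.86 ± 0.05 in 4T1, while its partner miR-9 did not separate the sides, with 168FARN the lowest line (-4.23 ± 0.08).

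In 7 further lower miRNAs, grouped here after their values were seen, 67NR stood far above the 3 other lines. In miR-374 67NR was at -0.79 ± 0.03 against -3.80 ± 0.10 in 168FARN, -4.52 ± 0.07 in 4TO7 and -4.36 ± 0.15 in 4T1. In miR-128, a brain-enriched miRNA, 67NR was at -0.75 ± 0.06 against -3.86 ± 0.11, -4.21 ± 0.04 and -4.33 ± 0.03. In miR-331-3p it was at -0.13 ± 0.08 against -2.69 ± 0.04, -3.12 ± 0.04 and -3.11 ± 0.04. The pattern was the same in miR-148b (-0.80 ± 0.05 in 67NR and -3.43 ± 0.08 in 168FARN), miR-423-5p (-1.53 ± 0.06 and -3.21 ± 0.05), miR-378 (-0.81 ± 0.05 and -2.23 ± 0.06) and miR-106b. In each of these 168FARN lay much nearer to the distant-site lines than to 67NR, and the gaps were between 0.20 and 0.56.

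In 6 of the lower miRNAs 168FARN instead was the highest line, namely miR-195, miR-497, miR-125a-3p, miR-140, miR-28 and miR-29c, of which the last 4 were separated in none of the 3 other scalings. For miR-140, a cartilage and fibroblast miRNA, 67NR was at -2.88 ± 0.04, 168FARN at -2.61 ± 0.08, 4TO7 at -3.30 ± 0.04 and 4T1 at -3.36 ± 0.02. For miR-28 the means were -4.45 ± 0.05, -3.66 ± 0.07, -5.16 ± 0.14 and -4.83 ± 0.07. For miR-29c, of a family that represses collagen genes, they were -0.55 ± 0.05, 0.12 ± 0.10, -0.73 ± 0.06 and -0.97 ± 0.01. Its family members miR-29a and miR-29b had side differences above 0 (1.09 ± 0.04 and 0.80 ± 0.04), with 67NR as the low line, but all 3 were below 168FARN. The list is completed by miR-26a, at 0.25 ± 0.10, -0.16 ± 0.05, -0.33 ± 0.09 and -0.79 ± 0.06, and by miR-671-5p, which was read on all arrays of 168FARN alone and is separated only through values close to the floor, so that no fold can be given.

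The place of 4T1 and 4TO7 within their side was not used to choose the miRNAs. They differed for 136 of 224 miRNAs (60.7%), with 4T1 higher in 56 (25%) and lower in 80 (35.7%). That split turns with the processing. 4T1 was higher in 78 and lower in 41 with scaling to all probes, 105 and 7 without scaling, 63 and 64 with quantile normalization, and 26 and 167 with normexp. Among the 27 separated higher miRNAs 4TO7 was called higher in 16 and 4T1 in 3, and without scaling 4TO7 in 0 and 4T1 in 13. All 11 of the Sfmbt2 cluster were among the 16, by 0.56 to 1.03 (median 0.79). With scaling to all probes, quantile normalization, normexp or the gene-level total signal 11 of 11 were still called lower in 4T1, and without scaling 0 of 11, with a median of 0.07. Outside that cluster the direction was not settled. There 4TO7 was the higher line in 5 of 16, miR-183, miR-182, miR-96, miR-31 and miR-31*, and 4T1 in 3, but 4TO7 in 1 and 4T1 in 7 with scaling to all probes, and 0 and 13 without scaling. Among the 25 separated lower miRNAs 4TO7 was the lower line in 9 (miR-34a, miR-195, miR-497, miR-125a-3p, miR-28, miR-16, miR-30a*, miR-30c and miR-106b) and 4T1 in 6 (miR-9*, miR-378, miR-148b, miR-29c, miR-26a and miR-30e). These counts turn as well, to 13 and 0 with scaling to all probes, 19 and 0 without scaling, and 3 and 21 with normexp.

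Some properties of the separated miRNAs were not part of their choice. Of the clusters with probe targets within 10000 bases of each other 21 held a separated miRNA, 5 were separated in full in 1 direction and 0 held both directions. The 5 are the first Sfmbt2 stretch, miR-183/96/182, miR-31 with its star strand, miR-195 with miR-497, and miR-30e with its star strand. Of the 12 seeds shared by at least 2 tested miRNAs and carried by a separated one, 4 were carried by at least 2 separated miRNAs (those of let-7, of miR-16, of miR-30c and of its family's star strands), and 0 by miRNAs separated in both directions. Members of a cluster share a transcript and members of a seed family may share signal, so these are not independent counts. Where another probe for the same miRNA was read on all 12 arrays, its side difference had the same sign in 5 of 5 higher and 10 of 10 lower miRNAs. Such a probe reads the same RNA. The clusters, seeds and probes without a separated miRNA were not counted, so these counts have no background share.

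Most called miRNAs were not separated, 156 of 208. The largest rise of this kind was that of miR-130a, which was unread in 67NR and at 1.47 ± 0.08 in 168FARN, 1.38 ± 0.02 in 4TO7 and 1.53 ± 0.01 in 4T1. Its side difference of at least 8.74-fold thus rests on 67NR, and against 168FARN the difference was -0.02 ± 0.03. The same held for let-7b, let-7c, let-7i and miR-21, with side differences of 2.29 ± 0.05, 2.12 ± 0.05, 1.80 ± 0.04 and 1.86 ± 0.04. Against 168FARN alone all 4 turned below 0, by -0.33, -0.20, -0.98 and -0.18. The oncogenic miR-21, the brightest of these, read 4.27, 4.27 and 4.28 in 4T1 and 3.85, 3.77 and 3.91 in 4TO7, with the 168FARN arrays at 4.18, 4.37 and 4.17 among those of 4T1 and 67NR at 0.15, 0.26 and 0.09.

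The largest falls without separation were those of miRNAs above the floor in 1 line. Besides miR-10b and miR-196a these were miR-218 and miR-590-5p, read in 67NR (-0.24 ± 0.02 and -1.06 ± 0.09) and not in the 3 other lines, and miR-465c-3p, read in 168FARN (-1.32 ± 0.11) alone. The list of a testis-expressed cluster near Fmr1 on the X chromosome, which does not hold miR-465c-3p, had 16 tested members. All 16 were called lower, beside 58.5% of all tested, and 0 were separated, or 11 with normexp, where 33 of all 224 tested were separated lower. Against 168FARN alone 16 were lower (41.1% of all tested), and against 67NR alone 0 (50% of all tested). The filter on read miRNAs thus fixed these calls in large part. The difference of the sides for such miRNAs is that of a single line.

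**Figure D4:**
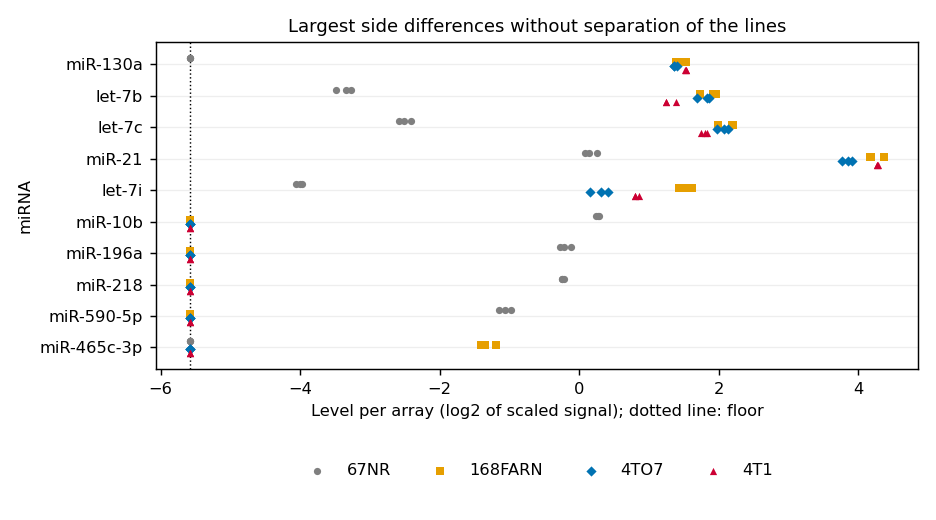
Levels on each array (log2 of scaled signal, x axis) of the 10 miRNAs with the largest called side differences that were not separated, with the floor as a dotted line. In the 5 that were higher 67NR alone is low and the 168FARN arrays lie among or above those of 4TO7 and 4T1, and in the 5 that were lower 1 line alone is above the floor.

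At the limit of the choice, miR-101b, miR-31 and miR-24 were the separated higher miRNAs with the smallest gaps (0.19, 0.17 and 0.13), and miR-30e*, miR-671-5p and miR-30e the lower ones (0.15 for miR-30e* and 0.13 for miR-30e, with none to be given for miR-671-5p). Just outside it stood miR-805 (at least 0.10), miR-212 (0.20) and miR-297b-3p, whose 4T1 level did not exceed the bound of the unread lines, each with a pair of lines that did not pass or with arrays that overlapped. In miR-212 1 array of 168FARN (-1.92) stood apart from the other two (-1.23 and -1.41). On the lower side miR-487b, miR-484 and miR-221 had gaps of 0.35, 0.23 and 0.10, with a larger spread between arrays than the separated ones, the SD of 168FARN being 0.28 for miR-487b and 0.19 for miR-484. For miR-221 the 4T1 mean (-0.04 ± 0.06) lay beside that of 168FARN (0.06 ± 0.07).

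Of 10 tested miRNAs known as promoters of breast cancer spread 5 were called higher in the distant-site lines and 4 lower (34.4% and 58.5% of all tested), and 1, miR-182, was separated. The inflammation-linked miR-155 was called higher by 0.71 ± 0.04, with 4T1 at -2.19 ± 0.03, 4TO7 at -4.89 ± 0.10 and 168FARN at -2.92 ± 0.10 between them. The hypoxia-induced miR-210 showed no call, with 0.06 ± 0.06 (adjusted p = 0.29). Of 9 tested miRNAs known as suppressors of it 3 were called higher and 6 lower, near those shares, and 2 were separated (23.2% of all tested) in opposite directions, miR-31 higher and miR-34a lower. Both lists held called members on either side, and their medians were 0.34 and -0.36 against -0.41 over all tested.

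Defining miRNAs of other cell types were checked in all lines. The epithelial miR-200 family was unread on nearly all arrays (0 of 5 members tested; miR-200c and miR-141 were above background on 1 array of 67NR each), so the labelled breast cancer origin is not mirrored by these epithelial markers in any of the 4 lines. None of the 4 liver and pancreas markers was read in a line. Of 8 mesenchymal and fibroblast markers 6 were read on all arrays of 168FARN and 2, miR-140 and miR-140*, in each other line. The summed raw signal of the 8 was 721 to 1144 in 168FARN, 101 to 133 in 67NR, 135 to 155 in 4TO7 and 227 to 288 in 4T1. These sums are not scaled between arrays, and the signal used for scaling was higher in 168FARN and 4T1 than in 67NR and 4TO7. The 6 read in 168FARN were all called lower in the distant-site lines (58.5% of all tested), and 5, 4 and 5 of them with scaling to all probes, without scaling and with quantile normalization. The counts over all tested with each scaling are given under how the results depend on the processing. Of the 6, miR-199a-5p, miR-199b, miR-199b* and miR-143 passed the filter on read miRNAs only through 168FARN, which fixed their calls in large part. Of the 6, 1 (miR-140) was separated, 0 with any of those 3 scalings and 6 with normexp, where 33 of all tested were separated lower. Against 168FARN alone all 6 were lower (41.1% of all tested), and against 67NR alone 1 was (50% of all tested). Of 6 blood and 4 muscle markers only miR-142-3p and miR-206 were read on all arrays of a line, each in 168FARN alone. Of 2 endothelial markers 1, miR-126-3p, was read on all arrays of each line but 168FARN. Of 8 nervous system markers 5 were tested. All 5 were called lower (58.5% of all tested), and 3, 3 and 4 with the 3 other scalings. Among them miR-218 passed the filter on read miRNAs only through 67NR, which fixed its call in large part. Of these 5, 2 were separated lower (11.2% of all tested), miR-9* and miR-128, or 1 with each other scaling and 0 with normexp. The part of these cells or programs in the lower miRNAs was not tested.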

How the data were processed

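Total RNA (100 ng per array, taken with Trizol per the labels' protocols) of 4 mouse lines was hybridised to 12 one-colour Agilent arrays and scanned with the Feature Extraction software, version 10.2.1.3. The deposited intensity values are its processed signals, which per the file headers are background-subtracted and not scaled between arrays, and the series-wide values of the authors equal them. They are not counts, so the number of arrays limits the precision. Control spots and outlier spots (283 to 502 per array) were left out, spots were averaged over 1672 probes, and the 75th percentile of the 170 probes that all arrays detect well above background set the scale of each array. Values under a floor of 0.0210 were set to it and log2 was taken (the deposited files hold no log2 values). The brightest probe stood for a miRNA, and miRNAs read on all 3 arrays of at least 1 line were tested.

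limma 3.58.1 (R 4.3.3, data.table, version 1.17.8) fitted the 4 line means with 8 residual degrees of freedom, and the median SE of a side difference was 0.0373. Two-sided p-values were adjusted by Benjamini-Hochberg. Named were, per direction, the separated miRNAs with the 10 largest gaps read on all arrays and the 8 largest with a line unread, the 3 smallest gaps and the 3 miRNAs nearest to separation, the 5 largest called differences without separation, list members, and partner strands, seed relatives and neighbours. Members and lists were chosen with earlier results of these data known. On simulated data of 224 miRNAs, with 20 changed at each of 3 folds, the side fit recovered 16, 20 and 20 at 1.2, 1.5 and 2-fold with 0 false calls, and separation 10, 19 and 20. The simulated lines of a side did not differ from each other, and no floor or slide was simulated. The 0 false calls therefore cannot show how often sides of differing lines would be called. Alternatives were other scalings (75th percentile of all probes, none, quantile), normexp with an offset of 50, the mean of all probes, gene-level total signal, other floors and filters, a trended variance, slide and replicate blocks, arrays or lines left out, lines as replicates, a minimum difference of 0.2, and stricter or looser separation. The comparison of the scalings within a side was added after the data were seen.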

Additional observations from a re-analysis of the deposited data

How the results depend on the processing

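The counts called in the side means ranged from 206 to 210 (77 to 78 higher, 129 to 133 lower) when each array was left out in turn, and the separated counts from 26 to 28 higher and 22 to 26 lower. The split into higher and lower moved with the scaling, from 77 and 131 to 87 and 111 with scaling to all probes, 81 and 108 without scaling and 93 and 116 with quantile normalization, and to 47 and 141 with normexp. The median over all tested moved from -0.41 to -0.14, -0.17, -0.15 and -0.36. The separated lower miRNAs were 12, 11 and 16 with the 3 other scalings, where 14 of the 27 higher and 10 of the 25 lower ones were separated in all 3, and with normexp the separated higher ones were 15. Restricted to miRNAs read on all arrays, a smaller set, the counts were 29 higher, 58 lower and 87 in all, with 9 and 15 separated. With lines as replicates they were 0, 0 and 0. With fewer lines to pass, more were separated: 51 and 67 within the slide that holds 168FARN and both distant-site lines, 52 and 69 without 67NR, 62 and 98 without 168FARN, while a gap of 1.5-fold with unread lines at the floor left 13 and 8 (9 and 8 with them at their bound). Within that slide the side difference turned to -0.00536 for miR-130a, -0.31 for let-7b, -0.17 for let-7c, -0.21 for miR-21 and -0.97 for let-7i, and without 67NR to -0.0198, -0.33, -0.20, -0.18 and -0.98. With the slide as a block 200 were called, 27 and 22 separated (without miR-26a, miR-30a* and miR-30e*), and miR-212 turned to -0.14. The cause of these changes was not tested. The replicate numbers do not pair the arrays: same-numbered arrays of different lines deviated together (r over 0.1) in 6 of 18 pairs (-0.80 to 0.56), and with the replicate block 210 were called and 27 and 24 separated. An array detected 142 to 191 miRNAs well above background, and an unread miRNA gives only a bound.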

Other observations

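In the Clcn5 cluster, a group of miRNAs in introns of a chloride channel gene on the X chromosome, 2 of 6 tested members were called higher and 3 lower in the side means (34.4% and 58.5% of all tested) and 0 were separated. For miR-500 4T1 was at -2.92 ± 0.05 (SD, n = 3 arrays) and 4TO7 at -4.30 ± 0.06, with 168FARN at -3.47 ± 0.02 and 67NR unread. For miR-532-5p 4T1 was at -3.53 ± 0.04 and 4TO7 at -4.83 ± 0.13, with 168FARN at -4.18 ± 0.13 and 67NR at -2.88 ± 0.05, so the distant-site lines lay on either side of 168FARN for both. The reverse order was that of miR-148a, read at -2.65 ± 0.04 in 4TO7 and at the floor in 4T1 and 168FARN, with 67NR at 0.51 ± 0.05.

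The miR-221 and miR-222 pair, which represses the cell cycle inhibitor p27, was called lower in the distant-site lines for both members (58.5% of all tested were), with side differences of -1.53 and -1.34, and was separated for neither. For miR-222 67NR was at 0.06 ± 0.07, 168FARN at -2.15 ± 0.10, 4T1 at -2.01 ± 0.02 and 4TO7 at -2.76 ± 0.07, so 67NR was again the line that stood apart.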
